A study of Macaca mulatta with 2 samples.

Results

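The genes described here are the secreted WNT proteins, their Frizzled (FZD) and LRP receptors, the secreted inhibitors of the DKK, SFRP and WIF families, the AXIN scaffold proteins and the TCF/LEF transcription factors. They were taken by gene symbol from the annotation of the array, with every probe included, and 46 of the 30982 genes named on the array belonged to the family. Their RNA was measured in primary Sertoli cell cultures of the rhesus macaque (Macaca mulatta). The pubertal cultures were made from the testes of males aged 18 to 22 months that had been taken into puberty with gonadotropin-releasing hormone (GnRH), given at 0.15 µg/min for 2 min once every 3 h over 4 to 5 weeks, and the infant cultures came from males younger than 3 months. Both kinds of culture had received 100 nM testosterone and follicle-stimulating hormone (FSH) at 5 ng/ml for 24 h. Each of 2 arrays held 1 pubertal and 1 infant culture in different dyes: the pubertal RNA was in Cy5 on array 1 and in Cy3 on array 2, so that 2 pubertal and 2 infant cultures, called biological replicates in the labels, were measured in all. Whether a culture pooled several animals is not given in the sources used here.

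WNT proteins are lipid-modified ligands that bind a Frizzled receptor together with an LRP co-receptor at the cell surface. In the canonical arm the bound receptors take AXIN away from the complex that destroys β-catenin, which then accumulates and acts with TCF/LEF factors on target genes. SFRP and WIF1 proteins bind WNT itself, and DKK1 binds the LRP co-receptors. In the mouse, β-catenin forced to stay active in Sertoli cells disrupts the testis, WNT4 takes part in ovary development, and WNT ligands of Sertoli cells act on spermatogonia.

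The probes were 60-base human sequences, so macaque RNA was read with human probes, and a ratio rests on how 1 probe bound the RNA of both cultures. The sequences of the probes that carry the results below are shown because 1 probe stands for each gene. They are given 5′ to 3′ in lower case, as the array's annotation lists them with positions on the human build hg17. The first 30 bases are shown for all except WNT4, FZD2 and the brighter WNT6 probe, which are shown whole.
WNT3, chr17:42196873-42196932, minus strand: gaagggggctttctttttagttctctaggg
WNT4, chr1:22192171-22192230, minus strand: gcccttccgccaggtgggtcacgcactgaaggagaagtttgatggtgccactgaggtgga
WNT6, brighter probe, chr2:219563785-219563844, plus strand: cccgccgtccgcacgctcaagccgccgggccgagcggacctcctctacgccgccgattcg
WNT6, dimmer probe, chr2:219564357-219564416, plus strand: tggaaaaaagccagtctaaaggcctctgga
FZD1, brighter probe, chr7:90542491-90542550, plus strand: aaatgccggtacttaggacctaaatttatc
FZD2, chr17:39992136-39992195, plus strand: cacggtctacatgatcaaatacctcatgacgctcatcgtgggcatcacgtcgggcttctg
FZD7, chr2:202728436-202728495, plus strand: ttttaaaactccaacacaggttttggcatc
FZD4, brighter probe, chr11:86334448-86334507, minus strand: aaatggaccctgcttttaaggatgtacaaa
DKK1, chr10:53746693-53746752, plus strand: aataacaccttccaaaaacctggagtgtaa
TCF7L1, chr2:85448336-85448395, plus strand: gaccactctggactgttctgtaaagtggct
The 64 probes of the family had 20.0% to 76.7% G and C, and the brighter WNT6 probe was the one at 76.7%. Among the 1995 pairs of probes of different members, the longest run of identical bases was 10. Probes were compared with probes only, so whether a probe also binds the RNA of a related member was not tested. No annotation of hg17 was used here, so exons and UTRs are not assigned to these positions.

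On the arrays, 30 of the 46 members passed the filter on dim probes, as did 19470 of all 30982 genes; a probe had to be well above background in both pubertal cultures, or in both infant cultures. Values are log2 ratios of pubertal over infant after background correction and loess normalization, and the brightest probe that passed stands for the gene. No member passed limma's test at an adjusted p of 0.05, and 0% of the 19470 genes did, with adjusted p between 0.975 and 1.00 over the members. Without adjustment, limma's p lay under 0.05 for 4 members (13.3%), WNT3, FZD2, FZD4 and FZD7, against a background of 4.06% of all genes. Under the 8 other settings fitted on both arrays FZD4 stayed under 0.05 in 2, and WNT3, FZD2 and FZD7 did in 7, all except median centring. TCF7L1, with an unadjusted p of 0.054 by limma, came under 0.05 in some of these settings. Limma's unadjusted p for it was 0.040 with an offset of 0 and 0.048 with the scanner's processed signals. It was also 0.048 with a filter on all 4 channels and with limma's intensity trend. In direction, 8 members were higher in the pubertal culture on both arrays (26.7%, background 23.5%), and 9 were lower on both (30%, background 21.9%). In 13 the arrays differed in sign (43.3%, background 54.6%). With median centring in place of loess, 3 members were higher (10%, against 10.8% of all genes) and 7 were lower (23.3%, against 9.71%). The 7 were FZD1, FZD2, FZD7, SFRP2, WNT10A, LEF1 and TCF7L2. These counts are set against 0, whereas median centring left the median of all genes at 0.63 on array 1 and -0.42 on array 2. On array 2 WNT10A, LEF1 and TCF7L2 lay above that median. LRP6, TCF7L1 and WNT4, not among the 7, lay below it on both arrays, and WNT3, WNT6, FZD4 and FZD6 lay above it on both. Of the 30 members, WNT3A and WNT9A passed the filter through the pubertal cultures alone and WNT5B through the infant cultures alone. WNT9A is among the 8 that were higher with loess. The medians over the members, at 0.06 on array 1 and -0.05 on array 2, lay close to those of all genes, at 0.05 and -0.03. Both pubertal signals were above both infant signals for 7 members (background 15.9%) and below them for 6 (background 14.2%). With loess the shares in either direction were near those of the whole array.

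**Figure D1:**
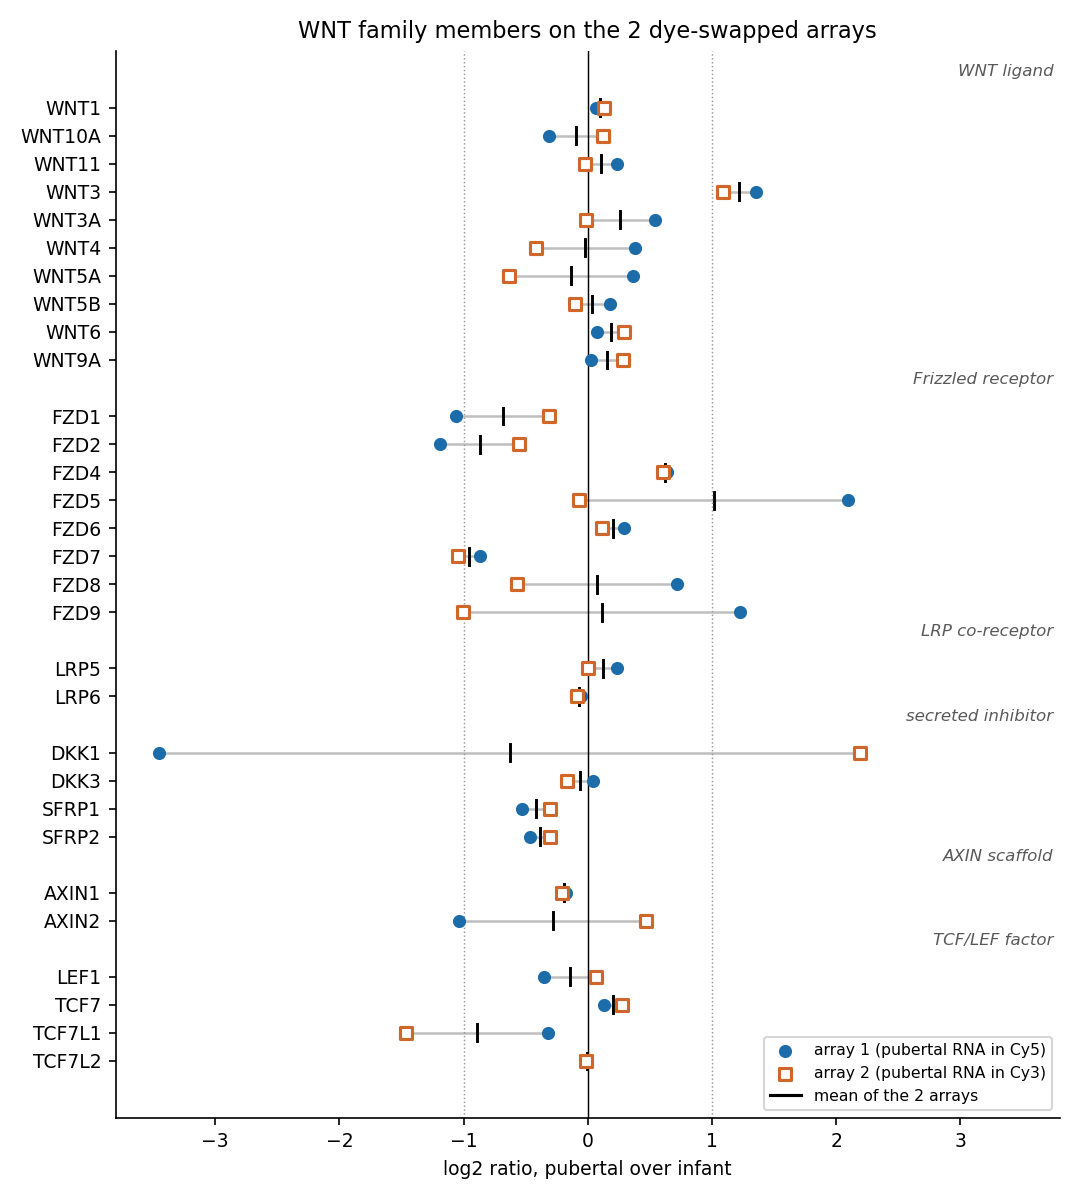
Log2 ratio of pubertal over infant (horizontal axis) for the 30 members that passed the filter, grouped by role, with filled circles for array 1, open squares for array 2 and a bar at their mean. The dotted lines mark a 2-fold difference. WNT3 lies beyond them at the same side on both arrays, and DKK1 and FZD9 lie beyond them at opposite sides.

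Over all genes the ratios of the 2 arrays were almost unrelated, with a Pearson correlation across genes of -0.065 and a Spearman correlation of -0.097. Genes are not independent replicates, and the figures only describe these arrays. In the pubertal channel 74.8% of spots on array 1 and 62.6% on array 2 were well above background, against 60.9% and 71.5% in the infant channel, so Cy5 was the channel with more such spots on both arrays. A member of opposite sign was brighter in the same dye on both arrays, in Cy5 for 9 members (30%, background 31.5%) and in Cy3 for 4 (13.3%, background 23.1%), and a dye effect and a difference between the pairs of cultures cannot be told apart for it. The 19 Sertoli cell markers examined all passed the filter, and their median ratio was 0.42 on array 1 and 0.17 on array 2. Among them 7 were higher on both arrays, 2 were lower on both and 10 had opposite signs. Of 25 germ cell markers 22 had ratios above 0 on both arrays, their medians were 0.61 and 0.47, and their summed signal was 9041 and 9314 units in pubertal cultures against 5288 and 7438 units in infant cultures. Of those 22, 9 passed the filter through the pubertal cultures alone, where they are high, so the filter favoured their direction without forcing it. Over all genes, 544 of the 1094 that passed this way were higher on both arrays. The other 13 of the 22 passed in both groups. TDRD1 and TDRD5 of that list did not pass the filter. Of 21 stromal markers 13 were lower on both and 1 was higher, with medians of -1.18 and -0.31, and their summed signal was 72950 and 133799 units in pubertal cultures against 163067 and 124107 units in infant cultures. The groups overlap in the stromal sum, which holds the saturated probe of SPARC. Without SPARC, left out after its values were seen, the sum was 40528 and 61754 units in pubertal cultures against 98672 and 87727 units in infant cultures, with no overlap. Of the markers of other cells, 5 of 10 peritubular myoid, 3 of 8 macrophage and leukocyte, 3 of 6 endothelial and 1 of 9 Leydig cell genes were higher on both arrays, and 2, 1, 1 and 3 of them, in the same order, were lower. Fewer cells of a type and less RNA per cell cannot be told apart in such cultures.

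Among the WNT ligands 10 of 19 passed the filter. WNT3, a ligand of the canonical arm, had signals of 409 and 328 units in the pubertal cultures and of 160 and 154 units in the infant cultures. Both pubertal cultures were above both infant cultures. The signal is a normalized intensity in arbitrary units, and for single genes it is compared here only within a probe. The log2 ratio was 1.36 on array 1 and 1.09 on array 2, with a mean of 1.22 (moderated SE 0.25, 95% interval 0.58 to 1.86), which is a 2.33-fold difference, and limma's adjusted p was 0.975. WNT3 was the only member at least 2-fold higher on both arrays (background 0.344%), and no member was 2-fold lower on both (background 0.354%). Of the 25 germ cell markers 22 were higher in pubertal cultures on both arrays, 13 of them passing the filter in both groups. In that list 1 was lower and 2 had opposite signs, and 7 of 19 Sertoli cell markers were higher. The part of either cell type in the WNT3 result was not tested. WNT9B, the neighbour of WNT3 with a probe 110.7 kb away on human chromosome 17, was not well above background often enough to pass.

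WNT6, a ligand that mouse Sertoli cells produce, was read by 2 probes that disagreed. The brighter probe gave log2 ratios of 0.08 on array 1 and 0.29 on array 2, with 726 and 900 units in pubertal cultures against 688 and 735 units in infant cultures. The dimmer probe gave -0.66 and -1.11, with 335 and 342 units in pubertal cultures against 528 and 738 units in infant cultures. The direction of WNT6 therefore depends on the probe. WNT10A, whose probe lies 19.5 kb from that of WNT6, gave -0.31 on array 1 and 0.12 on array 2.

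WNT4, a ligand known from ovary development, was at 0.38 on array 1 and at -0.42 on array 2, and a second probe was at 0.61 and -0.84. Its signals were 167 and 138 units in pubertal cultures and 129 and 184 units in infant cultures, so the groups overlap. WNT5A, a ligand mostly of the arm that does not act through β-catenin, was at 0.36 and -0.64, with 481 and 278 units in pubertal cultures and 374 and 433 units in infant cultures. WNT11, of the same arm, was at 0.24 and -0.02, WNT5B at 0.18 and -0.11, and the canonical ligand WNT3A at 0.54 and -0.02. These probes of the 5 genes were brighter in Cy5 on both arrays. A second WNT11 probe was at 0.28 and 0.10, and WNT3A, which was well above background in only 1 infant culture, was at 3.06 and 0.15 with the scanner's own processed signals. The ratios of WNT1 (0.07 and 0.13) and WNT9A (0.02 and 0.28) were above 0 on both arrays and small. WNT2, WNT2B, WNT7A, WNT7B, WNT8A, WNT8B, WNT9B, WNT10B and WNT16 did not pass the filter and were not tested.

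Among the Frizzled receptors 8 of 10 passed the filter, and they went different ways. FZD1, FZD2 and FZD7, which are close relatives of one another by sequence, had ratios below 0 on both arrays, also with median centring. FZD4 and FZD6 were higher on both, but with median centring, which left the median of all genes at 0.63 on array 1 and -0.42 on array 2, they were at -0.13 and -0.20 on array 2, still above that median. FZD7 had 216 and 221 units in pubertal cultures and 395 and 457 units in infant cultures, with no overlap. Its log2 ratio was -0.87 on array 1 and -1.05 on array 2, with a mean of -0.96 (moderated SE 0.24, 95% interval -1.59 to -0.33) and an adjusted p of 0.975 by limma. FZD2 had 604 and 667 units in pubertal cultures and 1379 and 977 units in infant cultures, again with no overlap. Its ratios were -1.19 and -0.55, with a mean of -0.87 (moderated SE 0.28, 95% interval -1.60 to -0.15).

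FZD1 had 926 and 1230 units in pubertal cultures and 1927 and 1529 units in infant cultures, and its ratios were -1.06 and -0.31, with a mean of -0.69 (moderated SE 0.29, 95% interval -1.44 to 0.07). The interval holds 0, and a second, dimmer FZD1 probe was at -0.03 and -0.05. The values of FZD1 and FZD2 are larger on array 1 and that of FZD7 on array 2. The stromal markers were lower as well, and on array 1 by more than on array 2; their part in these results was not tested.

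FZD4, which is also the receptor of the protein norrin, had 11768 and 8259 units in pubertal cultures and 7546 and 5420 units in infant cultures. Both pubertal cultures were above both infant cultures, and the ratios were 0.64 and 0.61, with a mean of 0.62 (moderated SE 0.24, 95% interval 0.01 to 1.24). The second FZD4 probe was at -0.12 and 0.39, so it did not keep one direction. FZD6, a receptor of the planar cell polarity arm, was at 0.29 and 0.11.

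FZD5 had 5842 and 2441 units in pubertal cultures and 1364 and 2566 units in infant cultures. The first pubertal culture was the highest and the first infant culture the lowest, while the second pair was close together. The ratio was 2.10 on array 1 and -0.07 on array 2, with a mean of 1.01 (moderated SE 0.55, 95% interval -0.41 to 2.43). FZD9 had 580 and 246 units in pubertal cultures and 248 and 494 units in infant cultures, so that its ratios, 1.23 and -1.01, were near mirror images, with a mean of 0.11 (moderated SE 0.56, 95% interval -1.34 to 1.56). FZD8 did likewise at a smaller size, with 0.72 and -0.57. All 3 were brighter in Cy5 on both arrays. FZD3 and FZD10 did not pass the filter.

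**Figure D2:**
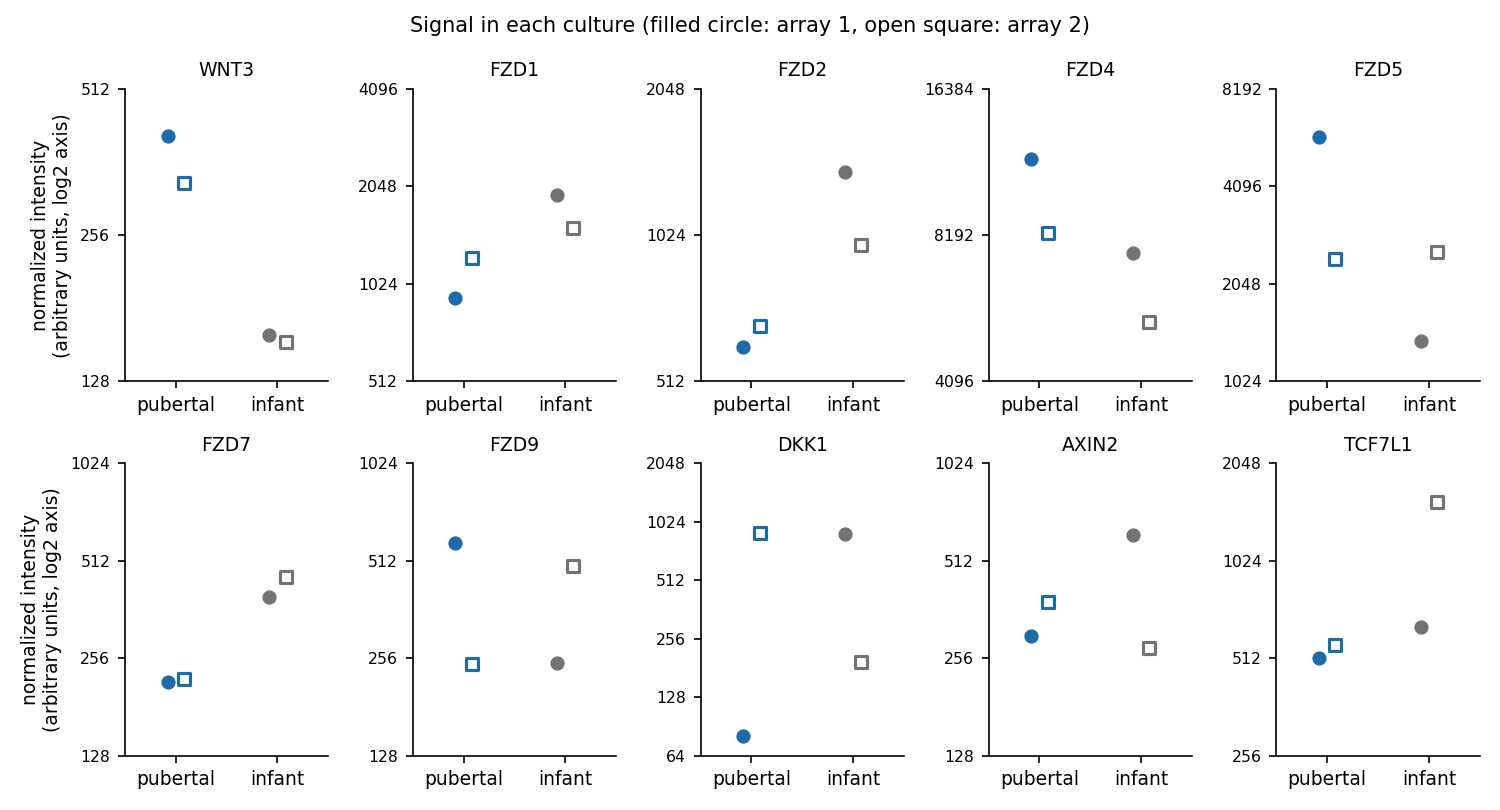
Normalized intensity (arbitrary units, log2 axis, own range in each panel) of the 10 members with an unadjusted p under 0.05 or a difference of at least 2-fold on either array, in each pubertal (left) and infant (right) culture, with circles for array 1 and squares for array 2. Pubertal and infant cultures do not overlap for WNT3, FZD1, FZD2, FZD4, FZD7 and TCF7L1, and they overlap for FZD5, FZD9, DKK1 and AXIN2.

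The LRP co-receptors differed little. LRP5 was at 0.24 on array 1 and at 0.004 on array 2, with 560 and 506 units in pubertal cultures against 475 and 505 units in infant cultures. LRP6 was at -0.05 and -0.08, with 219 and 267 units in pubertal cultures against 228 and 283 units in infant cultures. The 95% intervals of the means, -0.51 to 0.75 for LRP5 and -0.69 to 0.55 for LRP6, leave room for differences either way, so equal levels are not shown.

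Among the secreted inhibitors 4 of 9 passed the filter. DKK1, which blocks LRP5 and LRP6 and is itself switched on by β-catenin, had the widest gap between the arrays of all 30 members. It had 81.1 and 894 units in the pubertal cultures and 885 and 195 units in the infant cultures. The second pubertal and the first infant culture were thus alike and high, and the first pubertal culture was the lowest. The ratio was -3.45 on array 1 and 2.19 on array 2, a 10.9-fold difference one way and a 4.58-fold difference the other, and the mean of -0.63 had a moderated SE of 1.30 (95% interval -4.0 to 2.75). Both the high cultures were labelled with Cy3.

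SFRP1 and SFRP2, decoys that bind WNT, had ratios below 0 on both arrays with every probe, although median centring put SFRP1 at 0.70 on array 1, above the median of all genes there. SFRP1 had 12512 and 16117 units in pubertal cultures and 18106 and 19871 units in infant cultures, at ratios of -0.53 and -0.30. A second SFRP1 probe gave -1.04 and -0.13. SFRP2 had 180 and 258 units in pubertal cultures and 249 and 319 units in infant cultures, at -0.47 and -0.30, and its groups overlap. Further SFRP2 probes gave -0.67 and -0.03, and -0.75 and -0.27. The means, -0.42 for SFRP1 and -0.39 for SFRP2, had intervals that hold 0, and the stromal markers, lower on both arrays in 13 of 21, moved with them; their part was not tested.

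DKK3 was at 0.05 and -0.17 by its brightest probe, which was saturated in Cy5 on both arrays. Its other probes, with no saturated spot, were at 0.05 and -0.35, and at 0.65 and -0.62, again brighter in Cy5 on both arrays. WIF1 did not pass, since both of its probes were well above background only in the Cy5 channel, which held the pubertal RNA on array 1 and the infant RNA on array 2. DKK2, DKK4, SFRP4 and SFRP5 did not pass the filter either.

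Of the scaffold proteins, AXIN1 was at -0.18 on array 1 and at -0.21 on array 2, with 1435 and 1514 units in pubertal cultures against 1623 and 1747 units in infant cultures, although median centring put it at 0.74 on array 1, above the median of all genes there. AXIN2, a widely used readout of β-catenin activity, had 299 and 383 units in pubertal cultures and 614 and 276 units in infant cultures. The first infant culture stood above the other 3, and the ratios were -1.04 and 0.47, with a mean of -0.28 (moderated SE 0.42, 95% interval -1.36 to 0.80). The other AXIN2 probes gave -0.58 and 0.06, and -0.30 and 0.03, the same signs at smaller sizes.

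All 4 TCF/LEF factors passed the filter. TCF7L1, which mostly represses WNT targets, had 514 and 564 units in pubertal cultures and 641 and 1552 units in infant cultures. The second infant culture stood far above the other 3. The ratios were -0.32 and -1.46, with a mean of -0.89 (moderated SE 0.35, 95% interval -1.80 to 0.02). TCF7L2 was at -0.003 and -0.01, and LEF1 at -0.35 and 0.07.

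TCF7 was printed in 10 spots per array, which shows the error of a single spot. On array 1 its ratio ran over the spots between -0.08 and 0.25, with a median of 0.15 and an SD of 0.09. On array 2 it ran between 0.06 and 0.53, with a median of 0.29 and an SD of 0.13. The 264 probes printed in this way had a median SD of 0.09 on either array. That error covers spots of 1 array only and leaves out differences between dyes, probes and animals. The ratios of other members are therefore not judged by it.

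**Figure D3:**
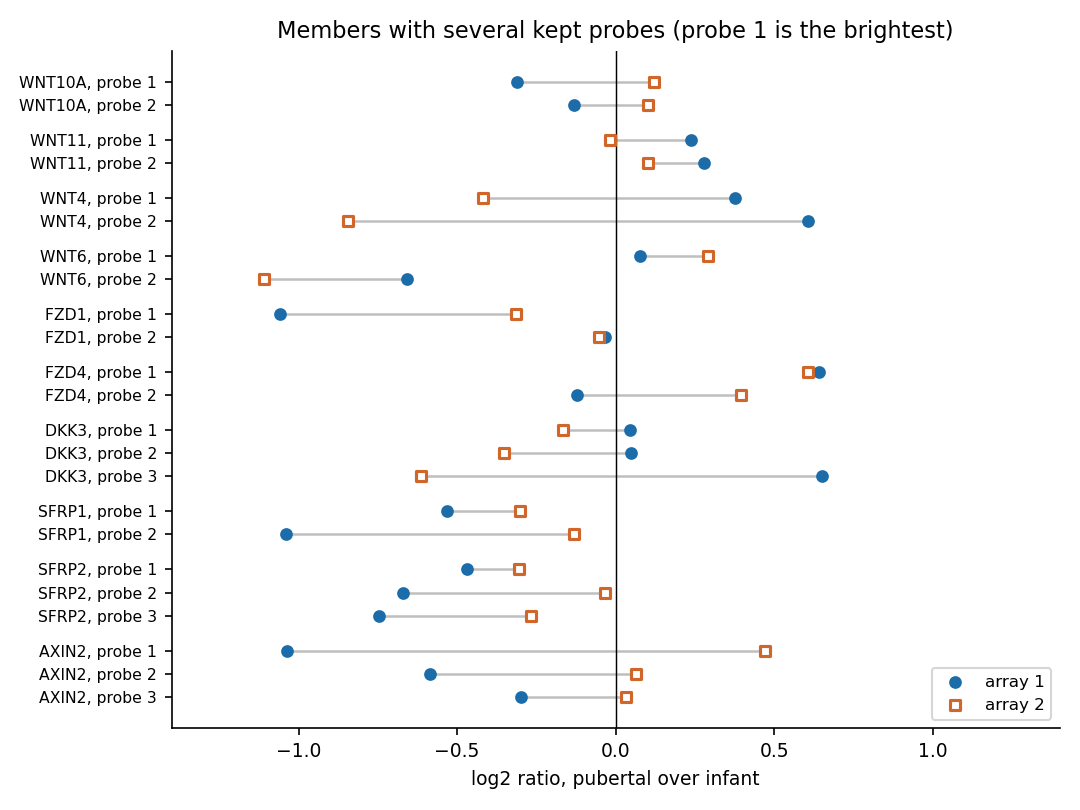
Log2 ratio of pubertal over infant (horizontal axis) for each probe that passed, in the 10 members with more than 1 such probe, with circles for array 1 and squares for array 2. The WNT6 probes lie on opposite sides of 0, and all probes of SFRP1 and SFRP2 lie below 0 on both arrays.

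Set against all genes, 9 of the 30 members differed by at least 2-fold on either array, against a background of 10.5%. On array 1 these were 7 members (background 7.24%), AXIN2, DKK1, FZD1, FZD2, FZD5, FZD9 and WNT3. On array 2 they were 5 members (background 4.73%), DKK1, FZD7, FZD9, TCF7L1 and WNT3. The members thus passed 2-fold on single arrays more often, by share, than all genes did, but only WNT3 did so in one direction on both. In the authors' deposited table, which holds 17 probes of 14 members, the log2 ratios of WNT3 were 2.03 and 1.61 and those of FZD7 were -1.17 and -1.43. That table lists FZD5 at 2.23 and -0.19 and FZD9 at 1.65 and -1.35, and for DKK1 the authors' deposited table has 2.79 on array 2 and an empty cell for array 1.

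**Figure D4:**
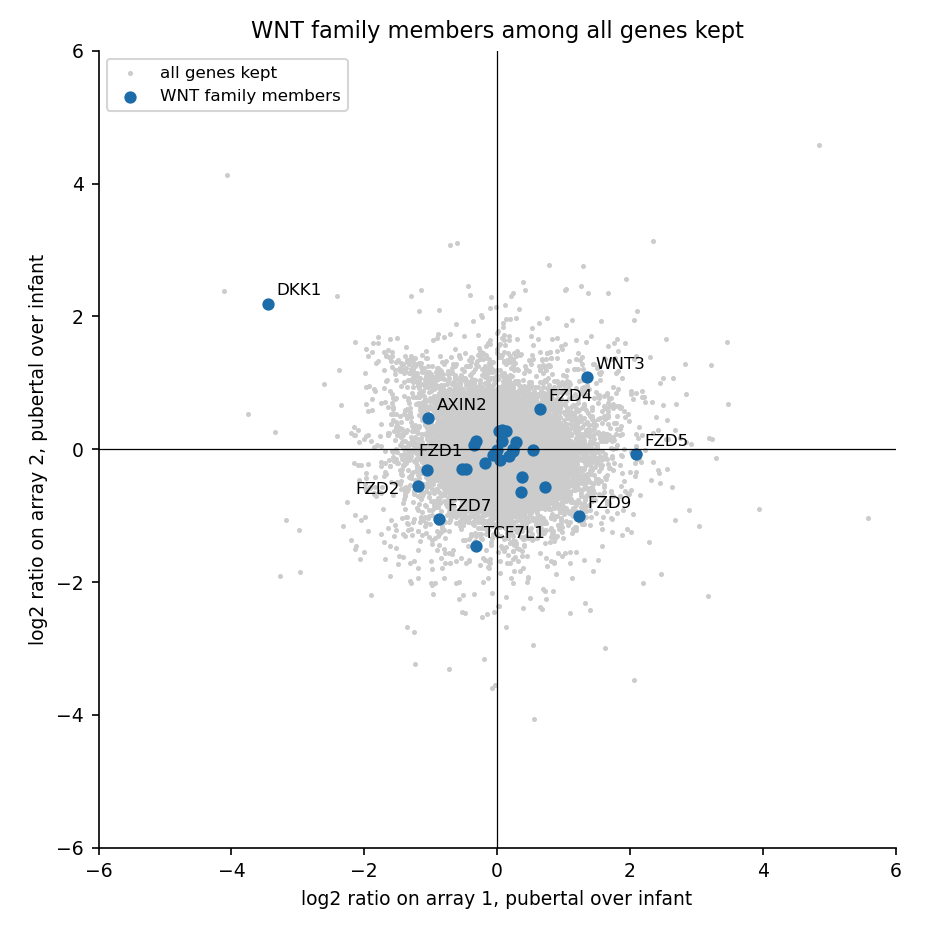
Log2 ratio of pubertal over infant on array 1 (horizontal axis) and on array 2 (vertical axis), with the 30 members in colour over all 19470 genes in grey. WNT3 and FZD4 lie in the upper right quadrant and FZD1, FZD2, FZD7 and TCF7L1 in the lower left, while DKK1 lies far up in the upper left.

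The rest of the pathway was read through 6 lists of 111 genes, of which 96 passed the filter. In all, 19 were higher in pubertal cultures on both arrays, 20 were lower on both and 57 had opposite signs, and 0 passed limma's adjusted test, with a lowest adjusted p of 0.944, while 7 had an unadjusted p under 0.05. The shares in the whole array were 23.5% for higher, 21.9% for lower and 54.6% for opposite signs. For an unadjusted p under 0.05 by limma the share was 4.06%.

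Among genes of WNT secretion and of modifiers outside the cell, 3 of 10 were higher on both arrays and 1 was lower. That one was GPC3, a cell-surface glypican, which had 86.6 and 114 units in pubertal cultures and 363 and 359 units in infant cultures, without overlap. Its ratios were -2.07 and -1.66, with a mean of -1.86 (moderated SE 0.26), and its adjusted p by limma was 0.944. APCDD1, an inhibitor at the membrane, was at 0.23 and 0.74, the inhibitor SOST, well above background in 1 infant culture, at 0.17 and 0.14, and the WNT carrier WLS, listed as GPR177, at 0.05 and 0.06.

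Among other surface receptors 3 of 12 were higher and 1 was lower. LRP4, a relative of LRP5 and LRP6, was at -0.48 and -1.08. The receptor kinase ROR1, which binds WNT5A, was at 0.64 and 0.40, but its other probe was at -0.01 and 0.09. The ligase RNF43, which clears Frizzled from the surface, was at 0.01 and 0.61, and the DKK co-receptor KREMEN2 at 0.28 and 0.14.

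Of the cytoplasmic relay and the destruction complex, 5 of 22 were higher and 5 lower. CTNNB1, which encodes β-catenin, had 28288 and 31400 units in pubertal cultures and 18139 and 21795 units in infant cultures, at ratios of 0.64 and 0.53, and a spot of this probe was saturated. A second CTNNB1 probe gave -0.43 and 0.90. The β-catenin inhibitor CTNNBIP1 was at 1.30 and 0.11, and the kinase CSNK1E at -0.41 and -0.74. The inhibitor CXXC4, one of the 5 higher, passed the filter through the pubertal cultures alone, where it is high. It was not well above background in either infant culture, and its mean signal was 88.6 units in pubertal cultures and 69.6 units in infant cultures, at least 1.23-fold higher when set, per array, against the higher of its own infant signal and the lowest signal well above background.

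Of the nuclear partners 1 of 15 was higher and 2 were lower. The co-activator PYGO1 had 299 and 246 units in pubertal cultures and 500.1 and 419 units in infant cultures, at -0.74 and -0.77. The co-repressor TLE3 was at 0.63 and 0.31. In the planar cell polarity and calcium arm, 2 of 18 were higher and 5 lower, among them the kinase PRKCA at -0.68 and -0.57 and DAAM2, a formin that works with dishevelled proteins, at -0.52 and -0.33, while the GTPase RAC1 was at 0.30 and 0.42. A dimmer PRKCA probe was at -0.19 and -0.04.

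Of the known β-catenin target genes, 5 of 19 were higher and 6 lower, and their median was -0.08 on array 1 and -0.01 on array 2. CD44, a hyaluronan receptor, had 241 and 759 units in pubertal cultures and 467 and 1352 units in infant cultures. Its groups overlap, yet it was lower within each pair, at -0.95 and -0.83. JUN, a transcription factor of the AP-1 complex, was at -0.65 and -0.74. TNFRSF19, a receptor of the tumour necrosis factor family that was well above background in 1 infant culture, was at 1.67 and 0.39, and another of its probes at 1.09 and 0.37. BIRC5, a gene of dividing cells, was at 0.10 and 1.31.

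**Figure D5:**
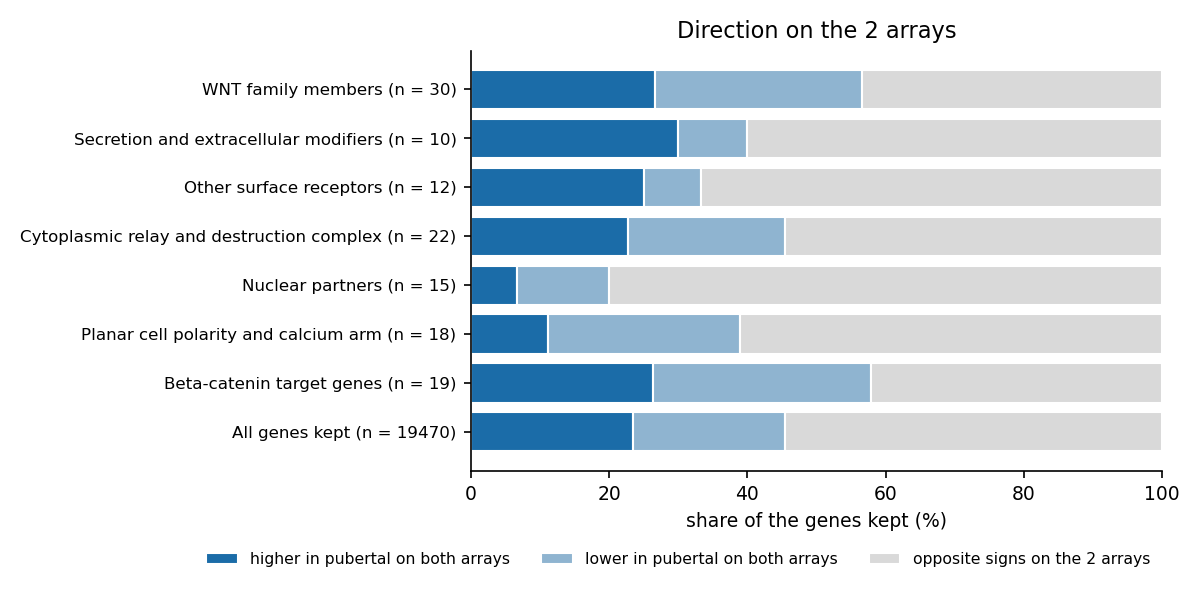
Share of genes (horizontal axis, percent) that were higher in pubertal cultures on both arrays, lower on both, or of opposite signs, for the 30 members, for the 6 pathway lists and for all 19470 genes that passed the filter. The members, with 8 higher, 9 lower and 13 of opposite signs, are close to all genes.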

How the data were processed

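Per the labels' protocols, total RNA of the cultures was amplified, labelled with Cy3 or Cy5 and hybridised with the dyes swapped. Both arrays were read from 1 slide in 1 scan (human design 014850), so no batch could be tested. Per the file headers and the submitters' processing notes, the authors' scanner files come from Agilent Feature Extraction 9.5.1.1 and hold mean and background intensity per spot, processed intensity, a log10 ratio and flags. The authors also deposited a table of 4848 log2 ratios per array. Set against the scanner's own log2 ratios turned to pubertal over infant, it had slopes of 1.01 and 1.00, so scale and direction are known; its column medians were -0.37 and 0.12, and the rule that chose its probes is unknown.

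From the deposited intensity values, normexp (offset 50) and loess within each array were run in limma 3.58.1 (R 4.3.3), with control and outlier spots left out and saturated spots kept. The offset makes the ratios of dim probes smaller. Signals of single cultures were scaled by Aquantile. The fit had 1 residual and 3.86 prior degrees of freedom, a two-sided test and Benjamini-Hochberg adjustment over 19470 genes. It was also run on simulated ratios without a dye effect, with planted changes larger than the mean of any member. That run cannot tell how well the fit finds changes of the size seen here. The number of arrays limits the precision. Every member is named; signals and full statistics are given for members with an unadjusted p under 0.05 or 2-fold apart on an array, and from each pathway list up to 4 genes of smallest p with one direction. Signals of other members (WNT4, WNT5A, WNT6, LRP5, LRP6, SFRP1, SFRP2, AXIN1), further probes and the TCF7 spots are given beyond that rule, after their values were seen. The members and lists were chosen with earlier results of these data known. All 46 symbols are in the macaque RefSeq gene table.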

Additional observations from a re-analysis of the deposited data

How the results depend on the processing

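No alternative brought a member past limma's adjusted p of 0.05; the lowest was 0.325, for WNT3 with an offset of 0. WNT3 ranged over 1.22 to 1.83, FZD7 over -1.30 to -0.90, FZD2 over -0.98 to -0.73 and FZD4 over 0.38 to 0.85. With an offset of 0, and with the scanner's processed signals, 2 members (WNT3 and FZD7) were at least 2-fold apart on both arrays, against 1. The share of all genes at that size was not counted under the alternatives, so such a change in count is not a result about the members. Median centring in place of loess left the median of all genes at 0.63 on array 1 and -0.42 on array 2. Counted against 0 and not against that median, 3 members were then higher on both (10%, against 10.8% of all genes) and 7 lower (23.3%, against 9.71%). In the same way 7 pathway genes were higher and 10 lower, and 0 members were 2-fold apart on both. Under median centring TCF7L1 was at 0.39 on array 1 and FZD4 at -0.13 on array 2, turned in sign though still on the same side of that median. AXIN1 (0.74) and SFRP1 (0.70) crossed that median on array 1, and DKK3 turned to a mean of 0.14. The scanner's signals turned DKK3 (0.016), WNT4 (0.024) and WNT5B (-0.19), and raised WNT3A to 1.61, against 0.26, and the mean over probes turned WNT6 (-0.35) and brought FZD1 to -0.36. The cause of these was not tested.

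On 1 array alone, members higher numbered 12 to 17 (40% to 56.7%, against 46.6% to 55% of all genes), lower 13 to 18 (43.3% to 60%, against 45% to 53.4%) and 2-fold apart 5 to 7 (backgrounds 4.73% and 7.24%); pathway genes higher numbered 46 to 49 and lower 47 to 50. A count over 1 array asks for no second direction, so it is larger by construction. Single arrays spanned -1.04 to 0.47 for AXIN2, -3.45 to 2.19 for DKK1, -0.072 to 2.10 for FZD5, -0.57 to 0.72 for FZD8, -1.01 to 1.23 for FZD9, -0.35 to 0.067 for LEF1, -0.31 to 0.12 for WNT10A, -0.019 to 0.24 for WNT11, -0.018 to 0.54 for WNT3A, -0.11 to 0.18 for WNT5B, -0.17 to 0.045 for DKK3, -0.42 to 0.38 for WNT4 and -0.64 to 0.36 for WNT5A. The fit is itself paired, since each ratio is a difference within 1 pair of cultures, so no further block could be added.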
